A study of Mus musculus with 15 samples.

Results

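Slc4a1, Kel, Sptb, Ank1, Tmod1, Rhag, Slc38a5 and Epb42 encode proteins of the red cell membrane and of the spectrin skeleton beneath it. They were taken as all probes that carry 1 of these 8 symbols, among 19057 named genes on the array. The 8 genes had 15 probes, of which 10 were kept after the filter on dim probes, and 7 of the 8 genes had a kept probe. Only the single Epb42 probe was lost with its gene. The genes were chosen because their signals had been seen to be high in 1 genotype, CM-CKO. Their CM-CKO values are therefore given as a description, and no test of them is used as support.

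RNA of 15 mouse embryo heads, collected at embryonic day 9.5 with 18 to 20 somites, was hybridised to Illumina bead arrays of 1 colour. The embryos had a mixed C57Bl/6, 129 and BALB/c background, and every embryo carried a floxed Twist1 allele. Twist1 is a basic helix-loop-helix transcription factor, and Mesp1-Cre expresses the Cre recombinase from the locus of Mesp1, a transcription factor of early mesoderm. Control heads (n = 3) were Twist1flox/+; Mesp1+/+, so they kept an unrecombined floxed allele beside an intact one. Het heads (n = 4) were Twist1flox/del; Mesp1+/+, with a deleted allele in every cell but Cre absent. CM-Het heads (n = 4) were Twist1flox/+; Mesp1Cre/+, so Cre could act on the floxed allele and the intact allele stayed. CM-CKO heads (n = 4) were Twist1flox/del; Mesp1Cre/+, so cells of the Cre lineage could lose their last Twist1 copy. The Cre allele takes the place of 1 Mesp1 copy in the CM-Het and CM-CKO heads. Nothing in the labels says whether heads of a group came from separate litters, so the p-values measure the spread between these heads.

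The membrane of a red cell is held in shape by a network of spectrin and short actin filaments. Ankyrin and protein 4.2 tie this network to the anion exchanger band 3, and further membrane proteins carry ions, ammonium, amino acids and blood group antigens. At this stage of mouse development the circulating red cells are nucleated primitive erythroid cells that arose in the yolk sac, so RNA of a head includes that of the blood in its vessels. In such bulk RNA, fewer cells of a type and less RNA per cell cannot be told apart.

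Because the 7 measured genes moved together between heads, the bases before the start site are shown for 3 of the 8 genes. RefSeq windows of 250 bases before the start of a transcript (GRCm38.p6) were at hand for 6 of the 8 genes, Slc4a1 and Ank1 having none in the table used. The start in that table can lie inside the gene as annotated. The window of Tmod1 lies wholly within its gene, as do the last 50 bases of the Rhag window and the last 9 of the Kel window. Kel is printed for its pair of GATA motifs, Sptb for a CACC motif without a GATA motif, and Epb42 as the gene whose probe gave no signal. Capitals mark matches, on either strand, to the GATA motif (AGATAA or else AGATAG, and likewise TGATAA or else TGATAG, the site of Gata1), to the CACC motif (CCACCC, a core of the site of Klf1) and to the E-box CAGATG, which basic helix-loop-helix proteins can bind. The Kel window lies at chr6:41704335-41704575 on the minus strand, the Sptb window at chr12:76710548-76710797 on the minus strand and the Epb42 window at chr2:121036878-121037127 on the minus strand.
Kel: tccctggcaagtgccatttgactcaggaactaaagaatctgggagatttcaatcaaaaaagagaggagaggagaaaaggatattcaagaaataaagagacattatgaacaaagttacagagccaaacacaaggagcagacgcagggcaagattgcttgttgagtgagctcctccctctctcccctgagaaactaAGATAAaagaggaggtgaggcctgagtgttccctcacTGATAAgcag
Sptb: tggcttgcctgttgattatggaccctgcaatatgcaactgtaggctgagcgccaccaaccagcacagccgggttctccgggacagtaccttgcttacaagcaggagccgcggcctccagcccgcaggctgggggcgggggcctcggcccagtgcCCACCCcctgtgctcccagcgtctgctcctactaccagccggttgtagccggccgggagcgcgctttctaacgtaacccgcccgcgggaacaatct
Epb42: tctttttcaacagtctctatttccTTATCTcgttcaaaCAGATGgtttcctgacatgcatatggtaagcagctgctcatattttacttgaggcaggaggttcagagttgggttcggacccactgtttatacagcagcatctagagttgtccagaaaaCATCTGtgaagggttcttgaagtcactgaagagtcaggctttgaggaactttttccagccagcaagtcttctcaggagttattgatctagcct
The 9 bases of the Kel window that lie inside the gene are not printed.

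A GATA motif stood in 3 of the 6 windows (Kel, Rhag and Epb42), against 26.5% of 32851 windows of the same length in the table. In Kel the matches began 56 and 19 bases before the start, in Rhag 31 bases and in Epb42 226 bases before it. The Rhag match falls inside the annotated gene. A CACC motif stood in 5 of the 6 windows (Kel, Sptb, Tmod1, Rhag and Slc38a5), against 28.1% of all windows. Its distances were 6 bases for Kel, 96 for Sptb, 141 for Tmod1, 112 for Rhag and 49 for Slc38a5. Those of Kel and Tmod1 fall inside the annotated gene, so the Kel match is not among the printed bases. The E-box was found in the Epb42 window only, 212 and 93 bases before the start, against 14.4% of all windows. No matches of the 3 motifs overlapped in these windows.

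The 15 arrays detected between 19204 and 19793 probes each, with mean deposited signals from 341 to 434. Their log2 signals correlated between 0.964 and 0.994 across probes. Twist1, read by 1 probe, lay between 9.87 and 9.95 in Control heads, 8.62 and 9.32 in Het heads, 9.76 and 10.04 in CM-Het heads and 8.94 and 9.34 in CM-CKO heads. The heads with a deleted allele were thus below those without one. Heads with Cre were not below those without it, since CM-Het differed from Control by −0.01 ± 0.15 and CM-CKO from Het by 0.19 ± 0.14 on the log2 scale (adjusted p = 1.00 and 0.425 in limma's fit), so the Cre part of the labels is not seen in this probe. The head markers Otx2 and Six3 were detected on all 15 arrays, Emx2 on 0 arrays, and the trunk genes Hoxb9, Hoxc9 and Hoxd10 on 0 arrays. Other listed trunk genes were detected, Hoxc10 on 8, Tbx6 on 12 and Uncx on 13 arrays. The number of arrays per group limits the precision of every value that follows.

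Of the 4 membrane proteins that move solutes or carry antigens, all had higher normalized signals in every CM-CKO head than in any other head, by a narrow margin for Rhag. Slc4a1 (chromosome 11, 102348820 to 102365281) encodes band 3, which exchanges chloride for bicarbonate and anchors the skeleton. Its normalized log2 signal was 10.21, 10.23 and 9.68 in the 3 Control heads, 9.75, 9.91, 10.28 and 9.72 in the 4 Het heads and 10.16, 9.87, 9.11 and 9.90 in the 4 CM-Het heads. In CM-CKO heads 1 to 4 it was 12.32, 13.54, 11.69 and 13.62. The deposited signals of the same probe lay between 674 and 1320.2 in the 11 other heads and between 3033 and 12601 in the CM-CKO heads. CM-CKO thus stood apart with no overlap, while the other groups covered the same range. The CM-CKO mean was above the Control mean by 2.75 ± 0.38 on the log2 scale (SE of the fit, n = 4 and 3), a fold of 6.72.

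Kel (chromosome 6, 41686329 to 41704334) encodes the Kell blood group protein, a membrane metallopeptidase. Its log2 signal was 5.92, 6.03 and 5.10 in Control, 5.39, 5.43, 6.03 and 5.10 in Het and 5.79, 5.94, 5.12 and 5.50 in CM-Het heads. The CM-CKO heads had 8.13, 9.25, 7.14 and 10.002. Again the CM-CKO heads were all above the rest, and the other groups overlapped. The log2 difference from Control was 2.95 ± 0.48, a fold of 7.71. Without background correction it was 1.85, below the 2.65 of Slc4a1, so the size and rank of Kel depend on that step.

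Rhag (chromosome 17, 40811099 to 40844094) encodes the Rh-associated glycoprotein, which conducts ammonium and holds the Rh complex together. Control heads had log2 signals of 5.74, 5.74 and 5.28, Het heads 5.03, 4.73, 5.51 and 5.61 and CM-Het heads 5.60, 5.18, 5.25 and 5.66. The CM-CKO heads had 6.69, 8.50, 6.02 and 9.72. CM-CKO 3 was the closest to the other groups, above the brightest Control head by less than the Het heads differed among themselves. Its deposited signal of 142.5 was below that of Control 2 (147.8) and CM-Het 4 (142.9). The log2 difference from Control was 2.15 ± 0.60, a fold of 4.43, with the widest error of the 7.

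Slc38a5 (X chromosome, 8271381 to 8280179) encodes a transporter of glutamine and other neutral amino acids. Its log2 signal was 7.41, 7.31 and 6.85 in Control, 6.47, 7.05, 7.16 and 7.04 in Het and 7.09, 6.93, 6.31 and 6.82 in CM-Het heads. In CM-CKO heads it was 9.01, 10.81, 8.42 and 11.35. No CM-CKO head overlapped with another group, and Het 1 lay below the other Het heads. The log2 difference from Control was 2.71 ± 0.51, a fold of 6.53.

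The skeleton genes followed the same pattern. Sptb (chromosome 12, 76580488 to 76710547) encodes the beta chain of red cell spectrin. Control heads had log2 signals of 7.53, 7.53 and 7.17, Het heads 7.23, 7.59, 7.54 and 6.87 and CM-Het heads 7.39, 7.40, 7.14 and 7.29. The CM-CKO heads had 9.89, 10.59, 8.76 and 11.46. They lay above all others, and the 3 other groups had nearly equal means. The log2 difference from Control was 2.77 ± 0.41, a fold of 6.81.

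Ank1 (chromosome 8, 22974836 to 23150501) encodes ankyrin 1, which links spectrin to band 3. Its log2 signal was 6.13, 6.10 and 5.97 in Control, 5.90, 5.89, 6.14 and 5.55 in Het and 6.12, 5.83, 5.60 and 5.78 in CM-Het heads. CM-CKO heads had 7.80, 8.996, 6.498 and 9.14. CM-CKO 3 was again the lowest of its group and still above every other head. The log2 difference from Control was 2.04 ± 0.43, a fold of 4.11. Without background correction it was 1.31, beside 1.29 for Rhag.

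Tmod1 (chromosome 4, 46038940 to 46116032) encodes tropomodulin 1, which caps the slow-growing ends of the short actin filaments. Control heads had log2 signals of 5.42, 5.28 and 5.64, Het heads 4.83, 5.20, 5.39 and 5.00 and CM-Het heads 5.14, 4.96, 5.14 and 4.92. The CM-CKO heads had 7.13, 8.58, 6.45 and 9.65. Besides the gap to CM-CKO, all 4 CM-Het heads lay below all 3 Control heads. The log2 difference of CM-CKO from Control was 2.51 ± 0.50, a fold of 5.69. Without background correction it was 1.45, so the size depends on that step.

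Epb42 (chromosome 2, 121017891 to 121036877) encodes protein 4.2, a relative of the transglutaminases that binds band 3 and ankyrin. Its only probe was detected on 0 of 15 arrays, with log2 signals from 4.196 to 4.67, where the detection threshold lay between 4.71 and 4.76. The CM-CKO heads had 4.28, 4.28, 4.24 and 4.30, inside the range of the other groups. No level or fold can be given for Epb42 from these arrays. It was the only gene of the 8 without a signal in the CM-CKO heads.

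**Figure D1:**
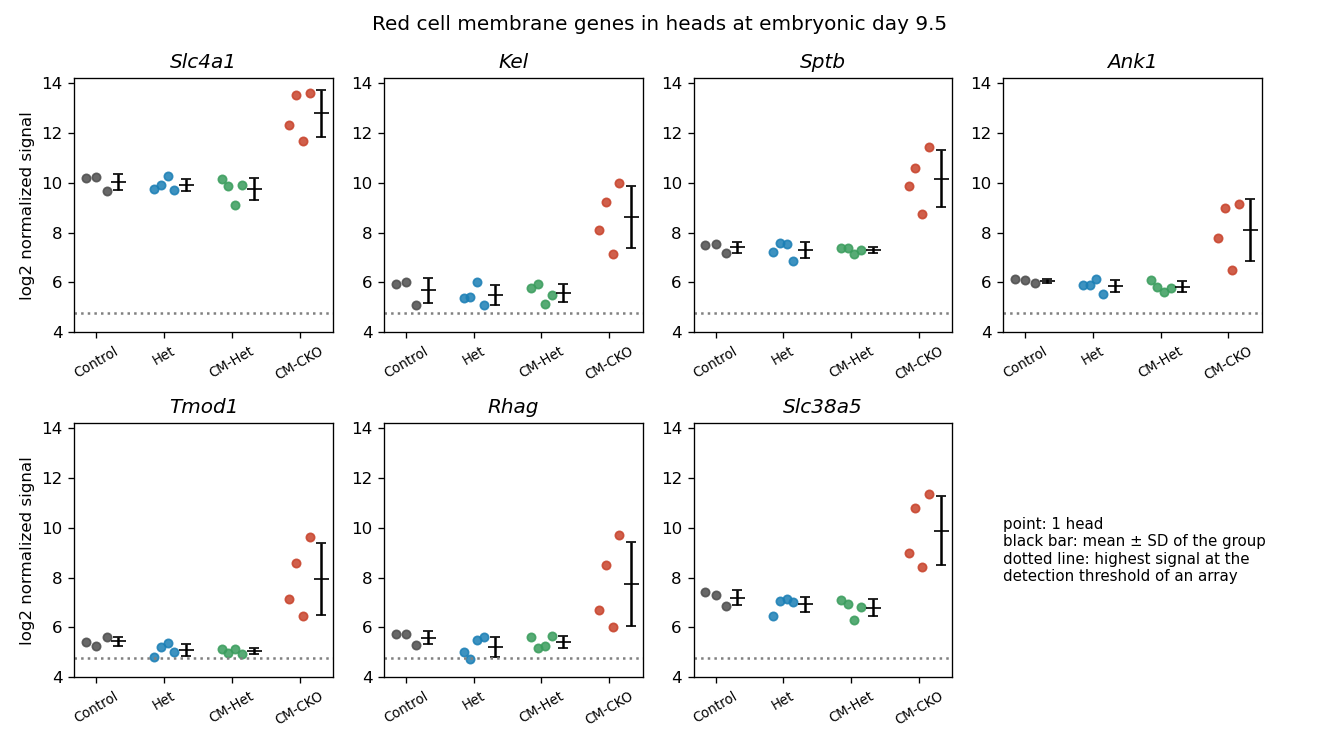
Normalized log2 signal of the 7 detected genes in each head (points), with the mean and SD of each group (black bars) and the highest detection threshold of an array (dotted line). For every gene the 4 CM-CKO heads lie above the 11 heads of the Control, Het and CM-Het groups, and for Tmod1 and Rhag some of those 11 heads lie close to the detection threshold.

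Over the 7 genes the median log2 difference of CM-CKO was 2.71 from Control, 2.87 from Het and 2.91 from CM-Het, where the medians over all 11625 genes tested were −0.03, −0.04 and −0.03. These comparisons share the CM-CKO heads. From Het the differences ran from 2.24 for Ank1 to 3.14 for Kel, and from CM-Het from 2.28 for Ank1 to 3.11 for Slc38a5. All 7 passed the adjusted p of 0.05 as higher in each comparison, beside 3.96% of all genes against Control, 4.15% against Het and 5.29% against CM-Het. Every CM-CKO head was above every other head for 7 of 7 genes, beside 3.17% of all genes. As the genes were chosen on these values, nothing is read from either count.

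The 4 CM-CKO heads differed widely among themselves, and they did so alike for all the genes. By normalized signal CM-CKO 4 was the highest, CM-CKO 2 next, then CM-CKO 1, and CM-CKO 3 the lowest, in 7 of 7 genes. This order held for 7.48% of all genes tested. The deposited signals of Ank1 departed from it, with 682.5 in CM-CKO 2 and 554.8 in CM-CKO 4. The median over the 7 genes, relative to the Control mean, was 4.13 in CM-CKO 4, 3.18 in CM-CKO 2, 1.82 in CM-CKO 1 and 1.23 in CM-CKO 3 on the log2 scale. In CM-CKO 3 Ank1 and Rhag were each only 0.43 above the Control mean, while Slc4a1 was 1.64 above it. The SD within CM-CKO ran from 0.94 for Slc4a1 to 1.69 for Rhag, against pooled SDs of 0.19 to 0.41 in the other groups. Their ratio was 2.66 at the lowest, for Slc4a1, and 7.71 at the highest, for Tmod1, with a median of 4.78, beside 1.08 over all genes. Slc4a1 came near the top of the scale in CM-CKO 2 and CM-CKO 4, and whether this lowered its SD was not tested. The fit takes 1 error per gene from all 4 groups. For genes with such a spread, the SEs and adjusted p-values of CM-CKO comparisons can therefore be too small.

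**Figure D2:**
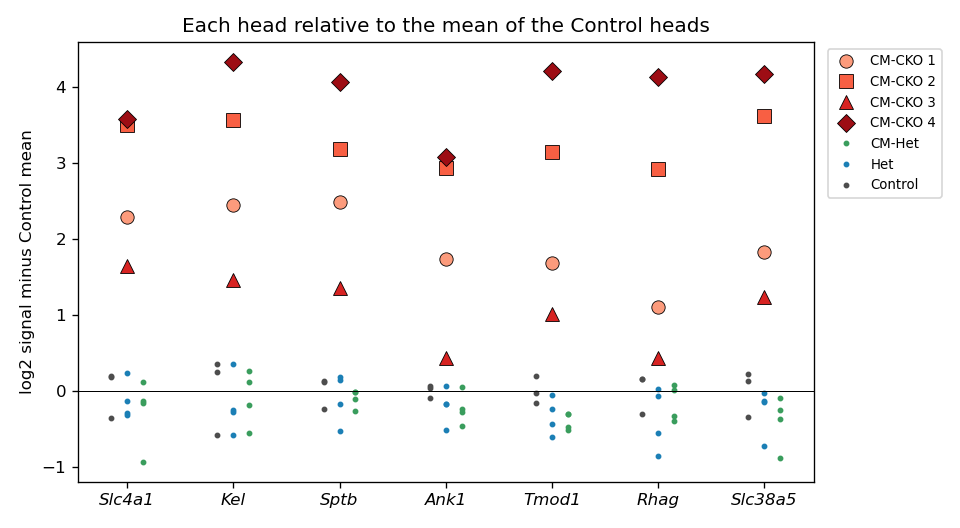
Difference of the normalized signal of each head from the mean of the 3 Control heads, on the log2 scale, for the 7 detected genes. Larger symbols are the 4 CM-CKO heads and small dots the other heads. CM-CKO 4 is the highest and CM-CKO 3 the lowest in every gene, and Ank1 and Rhag in CM-CKO 3 lie closest to the other heads.

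Without CM-CKO 4 the median log2 difference from Control over the 7 genes was 2.22, and without CM-CKO 3 it was 3.12. The heads were hybridised on 3 slides, slide 1 with Het 1 and CM-CKO 1 to 3, slide 2 with 5 arrays of the other groups and slide 3 with arrays of all 4 groups. On slide 3 CM-CKO 4 exceeded the 2 Control heads by 3.11 (Ank1) to 4.44 (Kel), at a median of 4.19. On slide 1 the 3 CM-CKO heads exceeded Het 1 by 1.87 (Ank1) to 2.94 (Slc38a5), at a median of 2.55. With slide as a block the CM-CKO difference from Control ran from 2.55 for Ank1 to 3.71 for Kel. CM-CKO 4, the highest head, is the only CM-CKO head on slide 3. The other 5 heads on that slide deviated from their own group means by −0.30 to 0.11, as a mean over the 7 genes. Those group means include the same heads, so a shift shared by the slide would show only in part.

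Several genes had more than 1 probe, and these probes bear on how much each value can carry. Sptb had 5 probes. Besides the probe used (ILMN_2660754), ILMN_1226636, which the annotation ties to a cDNA clone rather than the reference transcript, was detected on 7 arrays, of which 3 were Control, 1 Het, 3 CM-Het and 0 CM-CKO. Its CM-CKO difference from Control was −0.27 ± 0.14 on the log2 scale. The other 3 Sptb probes were detected on 0, 0 and 1 arrays, although they name the same transcript as the probe used. Averaging the kept probes of Sptb put its difference from Control at 1.25 in place of 2.77.

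Ank1 had a second probe that was detected on 1 array, CM-CKO 4, at a log2 signal of 5.27. The 3 probes of Rhag were all kept and moved alike. Their CM-CKO differences from Control were 1.96 ± 0.50, 2.15 ± 0.59 and 2.31 ± 0.59 on the log2 scale. Slc4a1, Kel, Tmod1, Slc38a5 and Epb42 had 1 probe each.

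**Figure D3:**
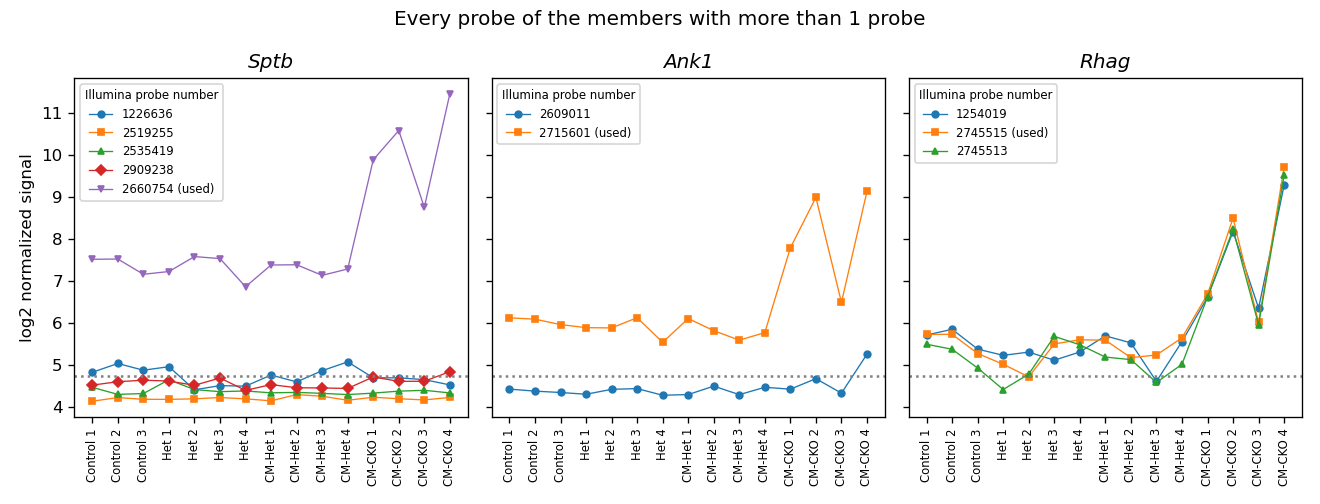
Normalized log2 signal of every probe of Sptb, Ank1 and Rhag, which had more than 1, across the 15 heads. The dotted line is the highest detection threshold of an array. The 3 Rhag probes follow each other, whereas 1 of 5 Sptb probes and 1 of 2 Ank1 probes carry the CM-CKO signal of their gene.

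The comparisons among the other 3 groups, which played no part in the choice of the genes, were tested. Het against Control asks what the deleted Twist1 allele changed without Cre, and CM-Het against Control what Mesp1-Cre changed beside an intact allele. These 2 comparisons share the Control heads. In limma's fit over 11625 genes, 0 of the 7 genes passed the adjusted p of 0.05 in Het against Control, in CM-Het against Control or in CM-Het against Het, and 0 passed an unadjusted p of 0.05. Of all genes 0%, 0% and 0.0172% passed. At an unadjusted p of 0.05, 636, 413 and 595 of all genes did.

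All 7 genes had lower means in Het than in Control heads, by 0.10 (Sptb, −0.10 ± 0.41) to 0.37 (Rhag, −0.37 ± 0.60) on the log2 scale, but with slide as a block 4 of the 7 were above 0, between −0.06 and 0.09. The median was −0.20, beside 0.02 over all genes, and within slides 2 and 3 it was −0.13 and −0.45. The 95% intervals of single genes reached from −1.64 to 0.90. In CM-Het heads all 7 also had lower means than in Control heads, between −0.40 ± 0.50 (Tmod1) and −0.09 ± 0.48 (Kel), at a median of −0.24, beside 0.01 over all genes. With median scaling in place of quantile normalization, which put the median of all genes at 0.13, Sptb turned to 0.04 in that comparison. Within slides 2 and 3 the CM-Het medians were −0.20 and −0.34. The CM-Het and Het means differed by −0.15 (Slc4a1) to 0.20 (Rhag), with a median of −0.04. In this fit the Control group was the highest of the 3 by its means. The heads of the 3 groups overlapped, except for Tmod1, where all CM-Het heads lay below all Control heads.

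The wide spread of the CM-CKO heads entered the error of these tests. In a fit without the 4 CM-CKO arrays the median SE of the 7 genes was 0.21 in place of 0.48 for the comparisons with Control. Tmod1 then was lower than Control by −0.34 in Het (95% interval −0.63 to −0.05, adjusted p = 0.712) and by −0.40 in CM-Het heads (−0.70 to −0.11, adjusted p = 1.00). Each passed limma's unadjusted p of 0.05, as did 6.91% and 4.4% of all genes in that fit, neither passed after adjustment over all genes, and the other 6 genes had unadjusted p-values from 0.0765 upwards. With slide as a block in the fit of all arrays the Tmod1 difference of Het from Control turned to 0.02, and that of CM-Het was −0.38. Tmod1 was also the only gene of the 7 for which a whole group, CM-Het, lay below all Control heads, beside 2.86% of all genes. The Het heads did so for 0 of the 7 genes, beside 2.57% of all genes.

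Within the 3 groups the genes tended to be high or low in the same heads. All 7 were above the mean of their own group in CM-Het 1 and in Het 3, by a median of 0.20 and 0.28 on the log2 scale. In Control 3, Het 1 and CM-Het 3, 6 of the 7 were below it, by medians of −0.30, −0.17 and −0.23. Across these 11 heads the deviations of 2 genes correlated between −0.16 and 0.86 over the 21 pairs, with a median Pearson r of 0.49. Each point of such a correlation is 1 array, so the genes share its labelling and normalization.

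**Figure D4:**
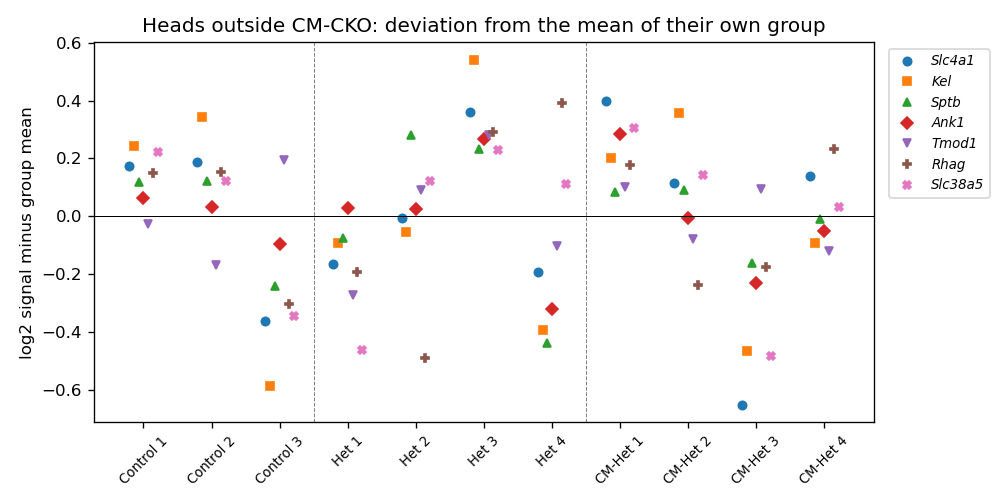
Deviation of each gene from the mean of its own group, on the log2 scale, in the 11 heads outside CM-CKO. All 7 genes lie above 0 in Het 3 and CM-Het 1, while in Control 3 and CM-Het 3 most lie below 0 and Tmod1 above it.

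Other genes of the red cell membrane were taken from a list of 27, of which 24 had a probe and 22 were tested. In CM-CKO against Control heads 8 of the 22 rose and 0 fell in limma's test with Benjamini-Hochberg adjustment over all genes, beside 3.96% of all genes higher and 3.28% lower. The median over the 22 was 0.70, and 19 of them were above 0. This list shares no gene with the 8 but was drawn up with earlier results of these heads known.

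The 8 that rose included skeleton genes. Add2, which encodes the adducin subunit that caps fast-growing actin ends, rose by 1.95 ± 0.52 (adjusted p = 0.0353), and Dmtn, which bundles actin, rose by 1.90 ± 0.41 (adjusted p = 0.0114). Dmtn had log2 signals of 8.52, 9.41, 7.55 and 10.10 in the CM-CKO heads and from 6.70 to 7.55 in the Control heads, where the highest Control head nearly reached CM-CKO 3. Add1, the widely used adducin subunit, stood at 0.17 ± 0.09 (adjusted p = 0.265), and Mpp1 and Tpm3, which encode other skeleton proteins, stood at −0.24 and −0.27, with adjusted p-values of 0.187 and 0.242. Add1, Mpp1 and Tpm3 are named here after their values were seen.

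Among membrane proteins, Ermap, which carries the Scianna blood group, rose by 2.23 ± 0.56 (adjusted p = 0.0267). Its log2 signal was 7.44, 9.15, 6.68 and 9.83 in CM-CKO heads and 5.87, 6.27 and 5.98 in Control heads. Icam4, an adhesion protein, rose by 1.77 ± 0.47 (adjusted p = 0.0337), and Xk, the partner of the Kell protein in human red cells, by 1.70 ± 0.40 (adjusted p = 0.0174). Xk was detected on 2 Control, 2 Het and 2 CM-Het arrays, so its difference is limited by the background. Tspan33, a tetraspanin of red cell precursors, rose by 1.62 ± 0.45 (adjusted p = 0.0401). Kcnn4, the calcium-activated potassium channel, was not well above background in Control heads, so its rise is a bound of at least 3.36-fold (mean log2 signals 6.48 and 4.51, adjusted p = 0.00639). That bound sets the CM-CKO mean against the higher of the probe's own signal and the detection limit on each Control array. Slc2a1, the glucose transporter of many cell types, rose by 0.72 ± 0.11 (adjusted p = 0.000923), with 13.24, 13.09, 13.02 and 13.18 in CM-CKO and 12.44, 12.27 and 12.51 in Control heads. Unlike the 7 genes, Slc2a1 did not follow the order of the CM-CKO heads.

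**Figure D5:**
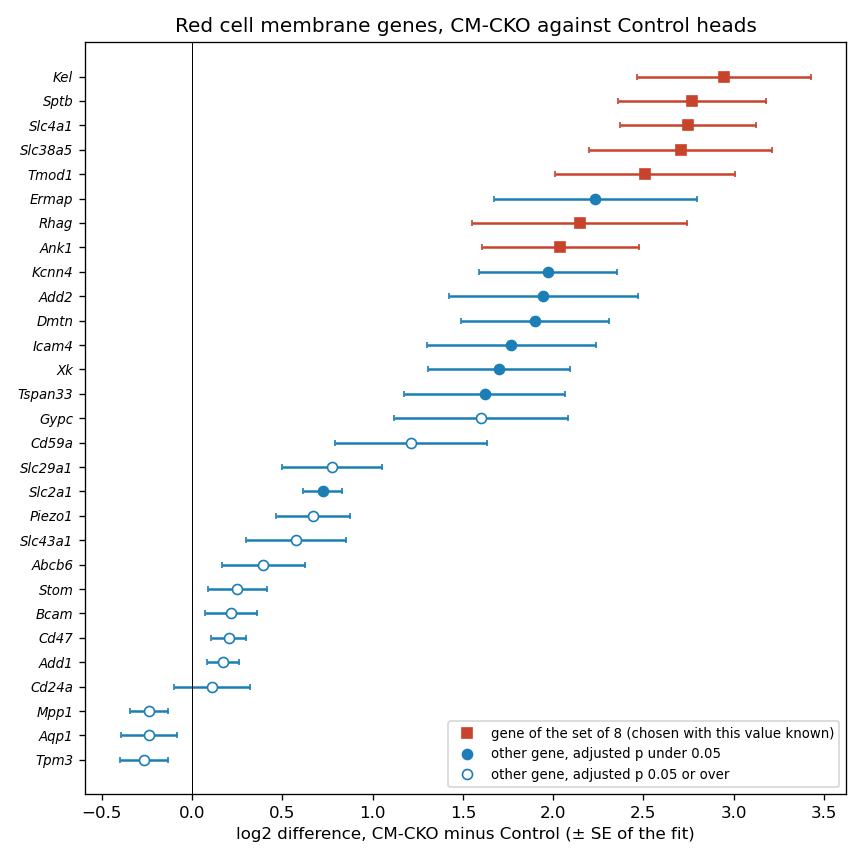
Log2 difference of CM-CKO from Control heads with its SE, for the 7 genes (squares) and 22 other red cell membrane genes (circles, filled where the adjusted p was under 0.05). The squares were chosen with these values known; Kcnn4 was not detected in Control heads, so its true difference is bounded only from below. Of the circles, 8 are filled, from Slc2a1 at 0.72 to Ermap at 2.23.

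Against Het and against CM-Het heads 10 of the 22 rose and 0 fell, beside 4.15% and 5.29% of all genes higher and 4.33% and 4.62% lower. Gypc and Slc29a1 were the additional ones, named here after their values were seen. Gypc, which encodes glycophorin C, a link between membrane and skeleton, rose by 2.03 ± 0.45 against Het (adjusted p = 0.0107), and its difference from Control was 1.60 ± 0.48 (adjusted p = 0.0562). The nucleoside transporter gene Slc29a1 rose by 0.87 ± 0.26 against Het (adjusted p = 0.0484) and by 0.87 ± 0.26 against CM-Het (adjusted p = 0.044). The count against Control rested on single heads. It was 2 without Control 3, 3 without Control 1, without Control 2 or without CM-CKO 2, and 12 without CM-CKO 3. With slide as a block it was 12. The CM-CKO heads had the order of the 7 genes in 13 of the 22, beside 7.48% of all genes. In 8 of the 22 all CM-CKO heads were above all others, beside 3.17% of all genes. In the comparisons among the other groups 0 of the 22 passed, with 0, 1 and 1 at an unadjusted limma p under 0.05.

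Relatives of the 8 genes are used mainly in other cells. Of 26 listed, 23 had a probe and 19 were tested. In CM-CKO against Control heads 1 rose and 2 fell, beside 3.96% of all genes higher and 3.28% lower, at a median of −0.08. All CM-CKO heads lay above all others in 1 of the 19, beside 3.17% of all genes. Tgm2, tissue transglutaminase and a relative of Epb42, rose by 1.36 ± 0.29 (adjusted p = 0.0107), with 9.41, 10.66, 9.35 and 10.85 in CM-CKO heads and 8.52 to 8.90 in Control heads. The CM-CKO heads lay in the order of the 7 genes for Tgm2 too. Against Het and CM-Het heads it rose by 1.30 ± 0.27 and 1.25 ± 0.27 (adjusted p = 0.00765 and 0.00913).

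Sptbn1, the beta spectrin of most other cells, fell by 0.45 ± 0.10 (adjusted p = 0.0146), from 7.53 to 7.86 in Control heads to 7.13 to 7.28 in CM-CKO heads. In the authors' deposited value table the same gene stood at 0.01. The difference of Sptbn1 was −0.37 ± 0.09 from Het and −0.50 ± 0.09 from CM-Het (adjusted p = 0.0229 and 0.00418). Slc38a9, a lysosomal relative of Slc38a5, fell by 0.42 ± 0.11 (adjusted p = 0.035) against Control. Against Het and CM-Het heads it fell by 0.43 ± 0.10 and 0.64 ± 0.10 (adjusted p = 0.018 and 0.00149).

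Ank3, the ankyrin of neurons and epithelia, fell by 0.51 ± 0.14 against Het and by 0.53 ± 0.14 against CM-Het (adjusted p = 0.0304 and 0.0231), while its difference from Control was −0.46 ± 0.15 (adjusted p = 0.0721). Tmod2, the tropomodulin of neurons, fell by 0.49 ± 0.12 against Het (adjusted p = 0.0236), while it stood at −0.23 ± 0.13 from Control and −0.34 ± 0.12 from CM-Het (adjusted p = 0.332 and 0.103). Tgm1, a transglutaminase of skin, was detected on 1 Control, 0 Het, 0 CM-Het and 2 CM-CKO arrays, so it met the filter through the CM-CKO heads. Against CM-Het heads its difference is a bound of at least 1.06-fold (mean log2 signals 4.80 and 4.44, adjusted p = 0.0432), and against Het of at least 1.05-fold (adjusted p = 0.0764).

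Genes inside red cells moved with the membrane genes. Of 20 tested genes for hemoglobin, heme synthesis and erythroid regulation 13 rose and 0 fell against Control, at a median of 1.83. Of all genes 3.96% were higher and 3.28% lower. Alas2, the first enzyme of heme synthesis in red cells, rose by 2.94 ± 0.50 (adjusted p = 0.00247). Klf1 and Epor, an erythroid transcription factor and the erythropoietin receptor, rose by 2.55 ± 0.50 (adjusted p = 0.00639) and 2.02 ± 0.50 (adjusted p = 0.024). Gata1 stood at 1.32 ± 0.39 (adjusted p = 0.0521). It was detected on 1 Control, 2 Het, 0 CM-Het and 4 CM-CKO arrays, so its difference is limited by the background. The embryonic globin genes Hba-x, Hbb-bh1 and Hbb-y stood at 0.22, −0.04 and 0.12 (adjusted p = 0.447, 0.851 and 0.541), with means between 13.52 and 13.81 where the top of the scale was 14.05. Hbb-bh1 turned to 0.93 (adjusted p = 0.0107) with the mean of its kept probes. Other globin genes of the list are named here after their values were seen. Hbb-bs and Hbb-bt, further from the top of the scale, had means of 9.55 and 9.63 in Control and 11.86 and 11.96 in CM-CKO heads. Hba-a1 had means of 13.51 and 13.92 in these groups, and the dim Hbb-b2 had 4.69 and 5.42. The summed signal of the 20 genes was 15.61 to 15.86 in Control, 15.50 to 15.80 in Het, 15.32 to 15.80 in CM-Het and 15.92 to 16.80 in CM-CKO heads on the log2 scale. The order of the CM-CKO heads was that of the membrane genes in 14 of the 20, beside 7.48% of all genes.

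Platelet genes moved in the same direction. Of 8 tested, 7 rose and 0 fell, beside 3.96% of all genes higher and 3.28% lower. Among the 7 was Pf4, a platelet chemokine, at 3.35 ± 0.42 (adjusted p = 0.000216). Ppbp, counted among the 7, was detected on 3 CM-CKO arrays and no others, so it met the filter only through the group where it is high. Treml1, a platelet receptor, stood at 1.72 ± 0.35 (adjusted p = 0.00858). Their summed signal was 7.65 to 8.16 in Control, 7.78 to 8.39 in Het, 7.58 to 8.02 in CM-Het and 8.81 to 10.48 in CM-CKO heads on the log2 scale. The order of the CM-CKO heads was that of the membrane genes in 3 of the 8, beside 7.48% of all genes. The part of the red cell and platelet genes in the membrane values was not tested.

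Tmod1, Ank1 and Sptb are also used in heart and skeletal muscle. Of 16 genes of these tissues on the array 6 were tested, and 0 rose and 0 fell against Control. Of all genes 3.96% were higher and 3.28% lower. At an unadjusted limma p under 0.05 were 0 of the 6, beside 2711 of all 11625 genes. Myl2, Myl3, Myh7, Tnni3, Nppa and Myf5 were detected on 0 arrays. Des and Actn2, the brightest, stood at 0.19 ± 0.13 (adjusted p = 0.442) and −0.13 ± 0.15 (adjusted p = 0.653). The summed signal was 8.04 to 8.17 in Control, 8.04 to 8.17 in Het, 7.87 to 8.17 in CM-Het and 7.88 to 8.81 in CM-CKO heads. Relative to the Control mean, the median of the 6 was 0.33 in CM-CKO 3 and −0.01, −0.23 and −0.16 in CM-CKO 1, 2 and 4. Myl4, named after its values were seen, was 7.22 in CM-CKO 3 and 5.52, 4.69 and 4.92 in CM-CKO 1, 2 and 4. The part of muscle in the membrane values was not tested.

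Markers of other cells differed from list to list, where 3.96% of all genes were higher and 3.28% lower than in Control heads. In the yolk sac and liver list 1 of 5 tested genes rose, Apob, by 1.00 ± 0.15 (adjusted p = 0.000944), while Afp, Alb and Cubn were detected on 0 arrays and Trf stood at −0.60 ± 0.24 (adjusted p = 0.151). Its summed signal was 7.57 to 7.92 in Control, 7.42 to 7.67 in Het, 7.50 to 7.67 in CM-Het and 7.57 to 8.05 in CM-CKO heads. Of 8 endothelial genes 0 rose and 2 fell. These were Emcn, by 0.78 ± 0.13 (adjusted p = 0.00246), and Cldn5, by 0.60 ± 0.16 (adjusted p = 0.0317), which encode a surface protein and a tight junction protein of vessels, while Esam, a junction protein too, stood at −0.23 ± 0.10 (adjusted p = 0.171). Their list's summed signal was 11.65 to 11.77 in Control, 11.65 to 11.90 in Het, 11.69 to 11.91 in CM-Het and 11.09 to 11.40 in CM-CKO heads.

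Of 3 macrophage genes 0 rose and 0 fell, with 0 at an unadjusted limma p under 0.05, beside 2711 of all 11625 genes. Ptprc and Tyrobp were detected on 0 arrays. Fcer1g and Mrc1, the brightest of the 3, stood at 0.09 ± 0.32 and 0.03 ± 0.19 (adjusted p = 0.901 and 0.951). The macrophage sum was 6.03 to 6.48 in Control, 6.23 to 6.72 in Het, 6.36 to 6.48 in CM-Het and 6.03 to 6.52 in CM-CKO heads. Of 5 head genes 1 fell, beside 3.28% of all genes. This was Lhx2, a transcription factor of forebrain and eye, by 0.91 ± 0.14 (adjusted p = 0.000923). Otx2 and Rax stood at 0.04 and −0.63 (adjusted p = 0.872 and 0.0996). The head list's sum was 11.42 to 11.60 in Control, 11.51 to 11.70 in Het, 11.65 to 11.78 in CM-Het and 11.29 to 11.68 in CM-CKO heads. Of 3 trunk genes 0 rose or fell, with 2 at an unadjusted limma p under 0.05, beside 2711 of all 11625 genes. These were Uncx at 0.43 ± 0.19 and Tbx6 at 0.33 ± 0.14 (adjusted p = 0.178 and 0.155). The trunk list's sum was 6.27 to 6.52 in Control, 6.16 to 6.60 in Het, 6.39 to 6.75 in CM-Het and 6.60 to 6.89 in CM-CKO heads. Cldn5 and Lhx2 are named after their values were seen. The part of these cells in the membrane values was not tested.

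The genes most like the 7 were found by the Pearson correlation of each other gene with their mean, over 15 arrays. By deviations from the group means, which leave out the differences between groups, the 10 most alike were Asb17os, Mgst3, Acss1, Nfe2, Gata1, Cited4, Epor, Uros, Blvrb and Nfs1, from 0.990 down to 0.967. By the levels themselves they were Mgst3, Nfe2, Cited4, Uba7, Blvrb, Ikzf1, Ncf4, Slc25a37, Acss1 and Chchd10, from 0.996 down to 0.989. Mgst3, Nfe2, Cited4, Blvrb and Acss1 stood in both lists. The median correlation of all other genes was −0.09 by deviations and −0.12 by levels. All points share the arrays, and the CM-CKO heads, with their wide spread, carry most of the variance.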

How the data were processed

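The authors deposited, per the file headers, non-normalized bead summary intensity values and a detection p-value for each probe on 15 arrays, and a value table of log2 numbers. In the deposited detection columns the p-values are out of row order (74.4% to 75.6% of probes out of place by more than 0.05) and were re-attached by rank. The column of Het 1 holds log2 values of the authors' value table in their place, so the rank average of the other 14 arrays was used. The normalization behind the authors' log2 value table stands in none of the sources used here, and 2804 of its 45281 rows differ from the intensity table.

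Background was corrected with limma's nec (offset 16), using the detection p-values, and arrays were quantile-normalized and put on the log2 scale. A probe was kept with a detection p under 0.05 on at least 3 arrays (21869 of 45281), and the brightest kept probe stood for its gene (11625 genes). Probes were named through the platform annotation (34885 with 1 gene name, 18 with several, 10378 with none). Where a group was not well above background, its bound was taken against the lowest detected signal of each array.

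limma 3.58.1 (R 4.3.3) was fitted to all 4 groups in 1 model over all genes, with Benjamini-Hochberg adjustment, after a test on simulated data. Error values are SEs of this fit, which takes 1 error per gene from all 4 groups, unless called SD. Members and lists were chosen with earlier results of these data known. Named genes are the 8, genes of the other red cell membrane list (at most 10) and of the relatives (at most 8) that passed the test, 7 red cell content genes, the 2 brightest of each other marker list, and the 10 most alike. Alternatives covered background, offset, scaling, filter, probe choice, the value table, slide, replicate block, arrays fitted and single arrays left out.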

Additional observations from a re-analysis of the deposited data

Results flagged for a closer look

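Slc38a5 in Het 1, at a log2 signal of 6.47, lay apart from the other 3 Het heads, the nearest of which had 7.04. The gap took 0.833 of the group's range, just past Dixon's limit at 95% for 4 samples. In all, 45 groups were looked at in this way, of which chance alone passes about 1 in 20. The Het 1 array is the only one outside CM-CKO on slide 1.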

How the results depend on the processing

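The 7 genes were chosen on their CM-CKO values, so their counts past the threshold are no support. Against Control these were 7 of 7, 3 with only the arrays compared, 1 with replicate block and slide, 6 to 7 without single arrays, and 6 without background correction, without the dim filter, in the authors' value table or with a replicate block (Rhag lost, adjusted p = 0.072, 0.074, 0.0737 and 0.0584). Against Het and CM-Het 6 passed with only the arrays compared, and without single arrays 7 and 6 to 7. Of the 22 other membrane genes 8 passed against Control. This count was 4 without background correction, 4 without a filter on dim probes, 3 in the authors' value table, 5 with a replicate block, 0 with replicate block and slide, 1 with only the arrays compared and 2 to 12 without single arrays. Against Het it was 10, with 2 from only the arrays compared and 7 to 11 without single arrays. Against CM-Het it was 10, with 5 from only the arrays compared and 6 to 12 without single arrays, 6 being without CM-CKO 2. Fitting only the arrays compared leaves fewer samples for the error. For the CM-CKO comparisons it also drops other groups, whose spread was smaller for the 7 genes. The cause of these changes in the counts was not tested. The median of the 7 genes against Control, 2.71, was 1.85 without background correction and in the authors' value table, 2.35 with an offset of 50 and 3.46 with slide as a block. Directions turned for Hbb-bh1 with the mean of its kept probes (0.93 against Control, 0.86 against CM-Het) and for Sptbn1 in the authors' value table (0.0093 against Control, 0.0027 against CM-Het). Comparisons among the other groups called 0 of the 7 and 0 of the 22 in every alternative run. The deviations of 21 pairs of equal replicate number in different groups correlated between −0.13 and 0.33, 5 of them over 0.1. Of the 15 arrays 9 correlated best with their own number. Most of the 5 pairs shared a slide, among them the highest, Het 1 with CM-CKO 1. Number and slide cannot be told apart in such pairs, and the numbers were not taken as pairs. Within slides there were too few arrays for counts. Epb42 and other dim probes are limited by their signal over background.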
